A study of Mus musculus with 4 samples.

Results

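The Bcl2 family governs whether a stressed cell opens its mitochondria and dies. Bcl2, Bcl2l1 (Bcl-x) and Mcl1 are the pro-survival proteins; Bax and Bak1 are the effectors, which open the outer mitochondrial membrane and release cytochrome c; and the BH3-only proteins, here Bcl2l11 (Bim), Bmf, Bid, Bad and Bbc3 (Puma), sense damage or lost support and act by inserting a short helix, the BH3 domain, into the others. In the kidney the balance is known from mouse genetics: embryos without Bcl2 form small kidneys that turn cystic, and loss of Bcl2l11 relieves that defect. The 10 genes were taken from the array by name, and every non-control probe bearing one of these names was used. Of 31809 gene names on the array these are 10, with 13 probes of 39429: 2 each for Bcl2l1, Mcl1 and Bad and 1 for each other gene. All 13 were well above background on all 4 arrays, so none was lost to the filter on dim probes.

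The arrays hold RNA of cells sorted from kidneys of mouse embryos at E15.5, of a hybrid of the 129 and C57BL/6 strains carrying Six2GFP, a fluorescent reporter named for the transcription factor that keeps nephron progenitors undifferentiated. Six2GFP-positive cells, described as nephron progenitors, were compared with Six2GFP-negative cells, the rest of the sorted kidney, on 2 one-colour arrays each. The labels add tamoxifen in the description of all 4 samples, while the protocols do not mention it, and the cell type entry calls both fractions nephron progenitors; how the reporter allele was made and whether it replaces a copy of Six2 are not given in the sources used here. Nothing in the labels says that the samples came from separate litters or pools, so p-values measure only the spread between these samples, which may be technical.

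Six2 separated the arrays as labelled, with log2 signals relative to the array's 75th percentile of 5.58 and 5.74 in positive cells against -0.17 and -0.15 in negative cells. Of 9 nephron progenitor markers 8 were higher in positive cells and 0 lower. In turn, 8 of 9 stromal, 8 of 9 ureteric bud and 7 of 8 endothelial markers were lower and 0 higher. Of 9 early nephron markers 8 were lower and 1, Fgf8, was higher, by 1.32 (limma adjusted p = 0.00293). The negative fraction held markers of several cell types, and in bulk samples fewer cells of a type and less RNA per cell cannot be told apart. Between 72.5% and 79.1% of spots were well above background, and 0 spots were saturated. With 2 arrays per group the number of arrays limits the precision. Of 30012 probes tested with limma, 39.3% passed an adjusted p of 0.05 (Benjamini-Hochberg over all probes), 21.1% higher and 18.2% lower in positive cells, and the median log2 difference over all probes was 0.15.

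The sequences of 3 probes, all from the coding part of their mRNA, are shown: the first 2 gave the largest differences of the family and the last is the less bright of the Bcl2l1 pair. Each is printed as the array carries it, 5′ to 3′, with its position on mm9. The capitals mark the codons of the core of the BH3 helix, bases 6 to 17 of the Bcl2l11 probe, the stretch by which Bim binds its partners.
Bcl2l11 (chr2:127972893-127983988, plus strand, spanning an intron): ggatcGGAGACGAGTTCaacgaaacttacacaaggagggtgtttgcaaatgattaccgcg
Bcl2 (chr1:108608970-108609029, minus strand): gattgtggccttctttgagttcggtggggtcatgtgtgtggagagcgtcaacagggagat
Bcl2l1, dimmer probe (chr2:152655185-152655244, minus strand): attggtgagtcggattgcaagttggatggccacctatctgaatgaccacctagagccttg
The array design assigns the Bcl2 probe to transcript variant 2. Whether it also reads other Bcl2 transcripts was not examined, so whether its difference is specific to that variant is not known. The brighter Bcl2l1 probe lies 48.8 kb away, at 152606404 to 152606463. It holds the polyadenylation signal AATAAA, as do the Bmf probe (chr2:118354496-118354555) and the brighter Bad probe (chr19:7026323-7026382).

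In Six2GFP-positive cells a survival gene and several of its BH3-only antagonists were higher together. Bcl2 was 3.77-fold higher, Bcl2l11 4.36-fold, Bbc3 2.21-fold and Bmf 1.57-fold. Lower were Bak1 by a factor of 1.5, Bcl2l1 by 1.36 at its brighter probe and Bid by 1.32. Bax, Mcl1 and Bad did not pass the threshold. In all, 7 of 13 probes passed, 4 higher and 3 lower, beside the 39.3% of all probes that did; 3 of 13 differed by at least 1 on the log2 scale, all upward, beside 4.14% of all probes that did so upward and 13.4% downward (17.5% in all). On 11 of 13 probes the arrays of the groups did not overlap, 8 higher and 3 lower, beside 75.1% of all probes, 47.6% higher and 27.5% lower, so that share is near the background. The 4 higher and 3 lower probes stand beside 21.1% and 18.2% of all probes.

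**Figure D1:**
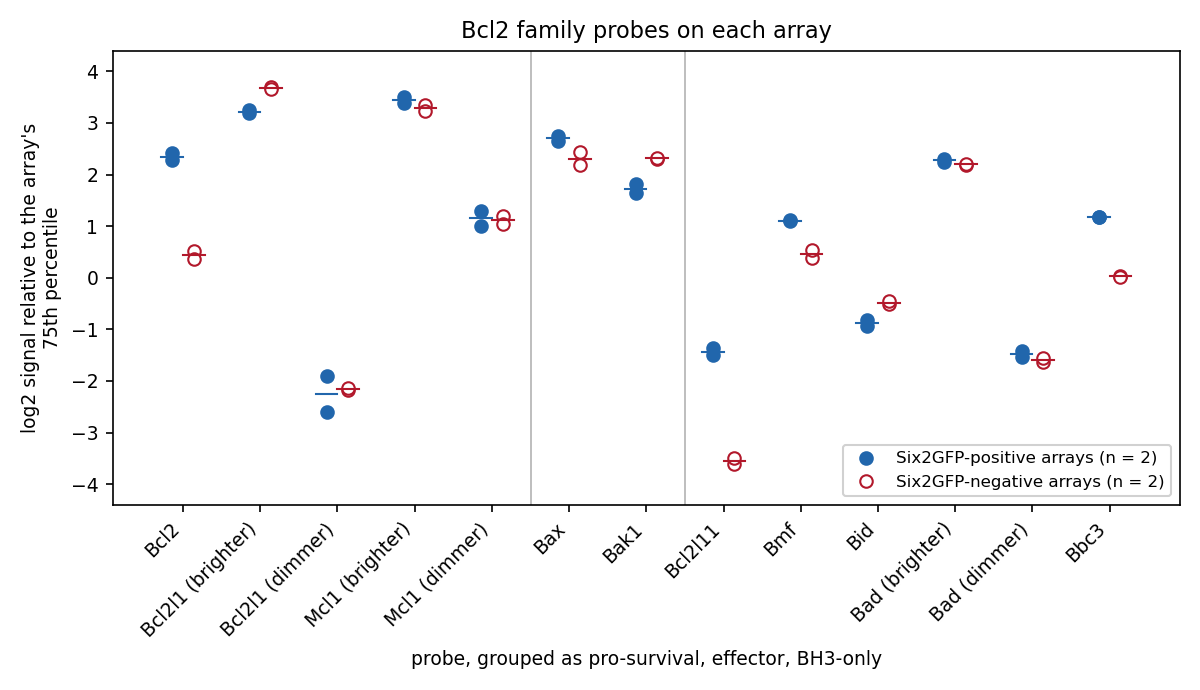
Log2 signal of each of the 13 probes on each array, relative to that array's 75th percentile, with filled points for the 2 Six2GFP-positive and open points for the 2 Six2GFP-negative arrays and a bar at each mean. Bcl2, Bcl2l11 and Bbc3 show the widest gaps between the groups, while the positive arrays of the dimmer Bcl2l1 probe lie on both sides of the negative ones; heights of different probes are not comparable.

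Of the 3 pro-survival genes Bcl2 was the one that passed as higher; Mcl1 did so too with the array median as the scale. Bcl2 holds BH3-only proteins and the effectors in check. Its processed signal on arrays 1 and 2 was 7608 and 6888 in positive cells and 2285 and 2042 in negative cells. Relative to the 75th percentile, log2 signals were 2.41 and 2.29 against 0.51 and 0.36, so the groups lay far apart compared with the gaps of 0.12 and 0.15 between arrays of a group. The log2 difference was 1.91 ± 0.11 (SE, n = 2 arrays per group; 95% interval 1.62 to 2.21; limma adjusted p = 0.00115), and 1.33% of all probes had as high a difference.

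Bcl2l1 gave a small difference the other way at its brighter probe. It encodes Bcl-x, whose long form protects many cell types, erythroid precursors among them. Signals of 13590 and 12890 on the positive arrays stood against 20680 and 19920 on the negative arrays, which gave log2 values of 3.25 and 3.19 against 3.69 and 3.65. The groups did not overlap, and the log2 difference was -0.45 ± 0.085 (adjusted p = 0.0236 in limma). The dimmer probe, printed above, read 235.5 and 378.7 in positive cells against 353.6 and 360.0 in negative cells. There the positive arrays, 0.71 apart on the log2 scale, enclosed both negative ones, and the difference was -0.088 ± 0.26 (95% interval -0.82 to 0.64; adjusted p = 0.809), or 0.16 with the array median as the scale. That interval includes the value of the brighter probe, so the probes were not shown to differ. Erythroid markers moved with the groups as well. Their summed level was 9.98 and 14.6 times the 75th percentile in positive cells against 301 and 285 in negative cells. Of these markers 7 of 8 were lower in positive cells, beside 18.2% of all probes. Epb42 was not well above background there, and the part of these markers in the Bcl2l1 difference was not tested.

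Mcl1, a short-lived protein that holds Bak1 and Bcl2l11, did not pass at either probe. The brighter probe (chr3:95466855-95466914) read 16200 and 14700 in positive against 16300 and 14850 in negative cells, and the dimmer one 3518 and 2824 against 3658 and 3295. Log2 differences were 0.16 ± 0.10 and 0.029 ± 0.14, with 95% intervals of -0.12 to 0.44 and -0.36 to 0.42 (adjusted p = 0.280 and 0.884). At the brighter probe the groups did not overlap after scaling, at 3.50 and 3.38 against 3.35 and 3.23, and with the array median as the scale it passed (0.41, adjusted p = 0.0343).

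Of the effectors Bak1 was lower and Bax did not pass. Bak1 (chr17:27156807-27156866), which sits in the outer mitochondrial membrane, read 5053 and 4418 on the positive arrays against 7922 and 8001 on the negative arrays, or 1.82 and 1.65 against 2.30 and 2.33 in log2 relative to the 75th percentile. The positive arrays were both below the negative ones, with a log2 difference of -0.58 ± 0.10 (95% interval -0.87 to -0.30; adjusted p = 0.0198). Bax (chr7:52717122-52717181), its cytosolic counterpart, read 9532 and 8902 against 8620 and 7195. Both positive arrays were above both negative ones in log2 (2.74 and 2.66 against 2.43 and 2.18), yet the difference of 0.39 ± 0.12 did not pass (95% interval 0.055 to 0.73; adjusted p = 0.0705). With the array median in place of the 75th percentile Bax passed (0.65, adjusted p = 0.0106) and Bak1 did not (-0.33, adjusted p = 0.0794). Bax also passed with normexp background correction and the 75th percentile (0.38, adjusted p = 0.0349) and with a trended robust variance (0.39, adjusted p = 0.0246).

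The 6 probes of BH3-only genes ranged from -0.40 to 2.12. Of these 3 passed as higher and 1 as lower, beside 21.1% and 18.2% of all probes. Bcl2l11 encodes Bim, which binds all pro-survival members and is released or induced when growth factor signals fall. Its signal was 506.5 and 550.6 in positive cells against 131.9 and 140.6 in negative cells. In log2 relative to the 75th percentile that was -1.50 and -1.36 in positive cells against -3.60 and -3.50 in negative cells, a difference of 2.12 ± 0.10 (95% interval 1.84 to 2.41; adjusted p = 8.9e-04). Of all probes 1.07% had as high a difference. The 95% intervals of Bcl2l11 and Bcl2 overlapped, and neither overlapped that of the next probe in order, Bbc3.

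Bbc3 encodes Puma, the BH3-only protein best known as a target of p53. Its probe (chr7:16903403-16903462, plus strand) read 3212 and 3176 in positive cells against 1650 and 1605 in negative cells. Log2 values of 1.17 on both positive arrays stood against 0.041 and 0.016, the tightest replicates of the family. The difference was 1.14 ± 0.082 (95% interval 0.91 to 1.37; adjusted p = 0.00212), and 3.22% of all probes had as high a value. Its interval overlapped that of Bmf, the next in order.

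Bmf, a BH3-only protein held at the cytoskeleton and freed when cells detach, read 3062 and 3072 in positive cells and 2083 and 2312 in negative cells. Log2 values were 1.10 and 1.12 against 0.38 and 0.54, without overlap, and differed by 0.65 ± 0.10 (adjusted p = 0.0148). Bid (chr6:120843464-120843523), which caspase-8 cleaves to link death receptors to mitochondria, was lower: 814.2 and 739.8 against 1131 and 1164, a log2 difference of -0.40 ± 0.094 (adjusted p = 0.0387). Bad, which growth factor signalling silences by phosphorylation, read 7064 and 6708 against 7274 and 7352 at its brighter probe and 539.5 and 486.9 against 519.9 and 543.3 at the dimmer one. Its log2 differences after scaling were 0.081 ± 0.085 and 0.12 ± 0.10 (95% intervals -0.15 to 0.32 and -0.15 to 0.39; adjusted p = 0.482 and 0.389), close to the median of all probes.

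**Figure D2:**
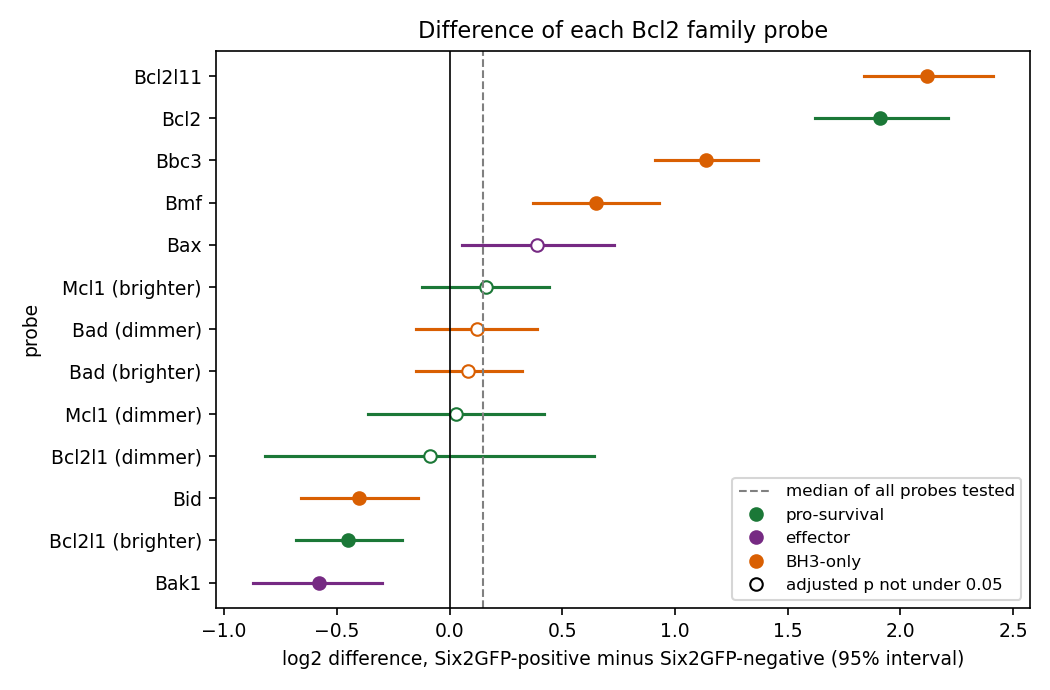
Log2 difference of each probe, Six2GFP-positive minus Six2GFP-negative, with limma's 95% interval, coloured by role; open points did not pass an adjusted p of 0.05 and the dashed line is the median of all probes, 0.15. Bcl2l11, Bcl2 and Bbc3 lie farthest to the right, the intervals of Bbc3 and Bmf overlap, and Bid, the brighter Bcl2l1 probe and Bak1 lie to the left of 0.

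The differences of Bcl2, Bcl2l11 and Bbc3 passed the threshold under each of the 15 alternatives run. Over these, Bcl2 ranged from 1.80 to 2.17, Bcl2l11 from 1.75 to 2.38 and Bbc3 from 1.06 to 1.39 on the log2 scale. Bmf kept its sign in all 15 and passed in 12; its adjusted p was 0.0676 without positive array 1, 0.0751 without positive array 2 and 0.0548 without negative array 1. The 3 lower calls were less firm. Bak1, Bid and the brighter Bcl2l1 probe kept their sign throughout, but each lost its call when any 1 of the 4 arrays was left out, with adjusted p up to 0.0916, 0.174 and 0.122. Centring on the array median, which moved the median of all probes from 0.15 to 0.41, also ended these calls: Bid then stood at -0.14 (adjusted p = 0.377) and Bcl2l1 at -0.20 (adjusted p = 0.206). Bid and the brighter Bcl2l1 probe also lost their calls when dim probes were kept in the fit (adjusted p = 0.0783 and 0.0535), and the mean of both Bcl2l1 probes was -0.27 (adjusted p = 0.202). Bid and this Bcl2l1 probe each passed in 8 of 15 alternatives and Bak1 in 10. With the 75th percentile as the scale, 18.0%, 21.3% and 20.2% of all probes had as low a difference as Bak1, Bid and Bcl2l1.

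**Figure D3:**
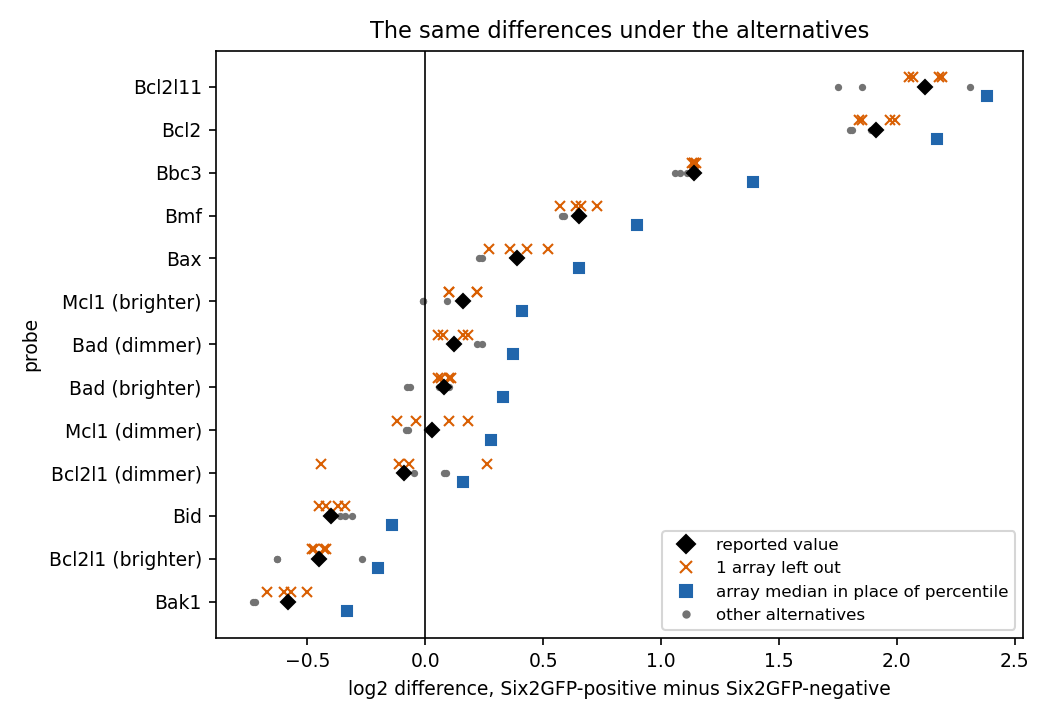
Log2 difference of each probe, Six2GFP-positive minus Six2GFP-negative, as reported (diamonds), with 1 array left out (crosses), with the array median as the scale (squares) and under the other alternatives (dots). Bcl2l11, Bcl2 and Bbc3 stay above 1 throughout, and the squares lie to the right of the diamonds for every probe.

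Arrays of a group differed little for most members. The median gap between positive arrays was 0.12 for the 13 probes and 0.12 for all probes, and between negative arrays 0.079 against 0.14. Genes that respond to cell handling did differ by replicate number: 7 of 8 such genes, Fos and Egr1 among them, were higher on the first positive array than on the second, and 8 of 8 in negative cells, by a median of 0.96 and 0.85, with summed levels on arrays 1 and 2 of 44.5 and 23.2 in positive and 39.8 and 21.4 in negative cells. Over the groups 0 of these genes were higher and 2 lower in positive cells, beside 21.1% and 18.2% of all probes. Of the 13 family probes 5 were higher on array 1 in both groups, 3 were lower in both and 5 went opposite ways. Array 1 minus array 2 was 0.12 in positive and 0.15 in negative cells for Bcl2, -0.14 and -0.11 for Bcl2l11, -0.0041 and 0.025 for Bbc3, and -0.025 and -0.17 for Bmf. The part of handling in the family's values was not tested. Macrophage and leukocyte markers were likewise higher on array 1, 12 of 12 in positive and 11 of 12 in negative cells, by a median of 0.54 and 0.15. Their summed levels on arrays 1 and 2 were 12.4 and 8.47 in positive and 17.8 and 15.9 in negative cells.

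Among the other genes of the pathway, listed by role and each read at its brightest probe, 60 of 65 were measured. Of these 11 were higher and 10 lower in positive cells, 35.0% in all beside 39.3% of all probes (21.1% higher and 18.2% lower), with a median of 0.16 beside 0.15 for all probes. With 1 array left out 0 to 3 genes passed as higher and 7 to 9 as lower. Of the pro-survival relatives, 3 of 6 were measured and 1 passed, beside 39.3% of all probes. That gene was Bcl2a1d, a gene of leukocytes with nearly identical copies and therefore uncertain. It was lower, at a log2 difference of -1.45 ± 0.30 (adjusted p = 0.0290). It lost its call without positive array 1, positive array 2 or negative array 1 (adjusted p = 0.0525, 0.0975 and 0.0723) and when dim probes were kept in the fit (0.0569). Its values of -3.03 and -3.48 in positive and -1.45 and -2.14 in negative cells did not overlap. Of the 12 leukocyte markers named above 5 were also lower in positive cells and 0 higher, beside 18.2% and 21.1% of all probes. The part of these markers in the Bcl2a1d result was not tested. Bcl2l2 was measured at 0.27 ± 0.10 (adjusted p = 0.0974).

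Of the other death relatives 2 of 10 were higher and 3 lower, beside 21.1% and 18.2% of all probes, so these counts are near the background. Pmaip1 (Noxa), the BH3-only partner of Mcl1 and, like Bbc3, a target of p53, was lower, at -3.0 ± 0.50 (adjusted p = 0.0177), opposite to Bbc3. It read -4.72 and -6.05 in positive cells, a wide gap, against -2.17 and -2.62 in negative cells, and lost its call without negative array 1 or 2 (adjusted p = 0.0800 and 0.0696). Bcl2l14 was lower, at -2.84 ± 0.20 and -1.21 at another probe, as was Bok, an effector-like relative of Bax and Bak1, at -1.22 ± 0.11 (adjusted p = 0.00214 and 0.00333 for the brightest probes). With normexp background correction and the 75th percentile, Pmaip1 stood at -1.74 and Bcl2l14 at -1.49, both past the threshold. Bnip3l and Bcl2l13, mitophagy receptors named here after their values were seen, were higher by 0.65 ± 0.092 and 0.57 ± 0.12 (adjusted p = 0.0116 and 0.0290). The Bcl2l13 call was lost with any 1 array left out and when dim probes were kept in the fit (adjusted p = 0.0598). The Bnip3l call was lost with any 1 array left out but negative array 2. All 4 Bnip3l probes lay between 0.59 and 0.65.

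Of 8 caspase and apoptosome genes 2 passed, both lower, beside 39.3% of all probes, among them Casp8, the initiator of death receptor signalling and the protease that cleaves Bid, at -1.01 ± 0.094 (adjusted p = 0.00399). Apaf1, the scaffold of the apoptosome, was measured at -0.059 ± 0.088 and Casp9 at 0.34 ± 0.15 (adjusted p = 0.619 and 0.150). Cycs was measured at -0.12 at its brightest probe (adjusted p = 0.512). Its other probes gave 0.43, past the threshold (adjusted p = 0.0434), and 0.053 (adjusted p = 0.765). Of 6 caspase inhibitors and their antagonists 1 passed at its brightest probe, beside 39.3% of all probes. Birc2 was higher by 0.40 ± 0.10 (adjusted p = 0.0417). That call was lost with any 1 array left out and when dim probes were kept in the fit (adjusted p = 0.0825). Diablo and Htra2 did not pass at the brightest probe (0.30 and 0.36, adjusted p = 0.0831 and 0.0538). Another probe of each did (0.42 and 0.40, adjusted p = 0.029 and 0.03), as did the mean of probes (0.36 and 0.38, adjusted p = 0.0454 and 0.0387). Of 7 death receptor genes measured 1 passed at its brightest probe, beside 39.3% of all probes. The receptor Fas was lower, at -3.28 ± 0.11 (9.73-fold, adjusted p = 5.2e-04), with values of -6.85 and -6.69 in positive and -3.44 and -3.54 in negative cells. Its processed signals in positive cells were only 12.38 and 13.62, and with normexp background correction the difference was -1.33 (75th percentile) or -1.32 (quantile), still past the threshold. Cflar, an inhibitor of Casp8, was measured at -0.70 (adjusted p = 0.0549) at its brightest probe, but its other probes passed at -0.71 and -0.74 (adjusted p = 0.0144 and 0.00667), as did the mean of its probes (-0.71, adjusted p = 0.0110). Tnfrsf1a was measured at -0.10 (adjusted p = 0.449), while its other probe passed at -0.57 (adjusted p = 0.0129) and so did the mean of both (-0.33, adjusted p = 0.0482). Fas, Casp8 and Bid belong to the receptor route and were each lower in positive cells; they were picked out after their values were seen, and Fadd and Tradd, listed with Fas, did not pass.

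Of 4 genes for p53 and its regulators 1 passed at its brightest probe, beside 39.3% of all probes. Trp53 itself was measured at 0.34 ± 0.11 (adjusted p = 0.0772), and its ubiquitin ligase Mdm2, also its target, was higher by 0.48 ± 0.082 (adjusted p = 0.0189). The Mdm2 call was lost with any 1 array left out. Usp7 was measured at 0.24 (adjusted p = 0.109), while its other probe passed at 0.50 (adjusted p = 0.0472) and so did the mean of both (0.37, adjusted p = 0.0398). Of 9 p53 targets measured 3 were higher and 2 lower at the brightest probe, beside 21.1% and 18.2% of all probes. Tigar was measured at 0.37 (adjusted p = 0.0831), while its other probe passed at 0.36 (adjusted p = 0.0471). Phlda3 was higher by 0.86 ± 0.16, and Sesn2 and Trp53inp1, named after their values were seen, by 0.68 ± 0.093 and 0.59 ± 0.085 (adjusted p = 0.0231, 0.0110 and 0.0122). Leaving out any 1 array ended the Trp53inp1 call, any but negative array 2 the Phlda3 call, and either positive array the Sesn2 call. Another Trp53inp1 probe gave -0.37, and the mean of its probes 0.11 (adjusted p = 0.347). Perp, a membrane protein of epithelial junctions, was lower, at -4.17 ± 0.23 (-3.46 with normexp and the 75th percentile), as were 8 of 9 ureteric bud markers, whose part in this was not tested. Cdkn1a, the cell cycle inhibitor p21, was lower, at -0.92 ± 0.085 at its brightest probe, while its other probe gave 0.59 ± 0.39 and the mean of both -0.17 (adjusted p = 0.00380, 0.288 and 0.567).

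**Figure D4:**
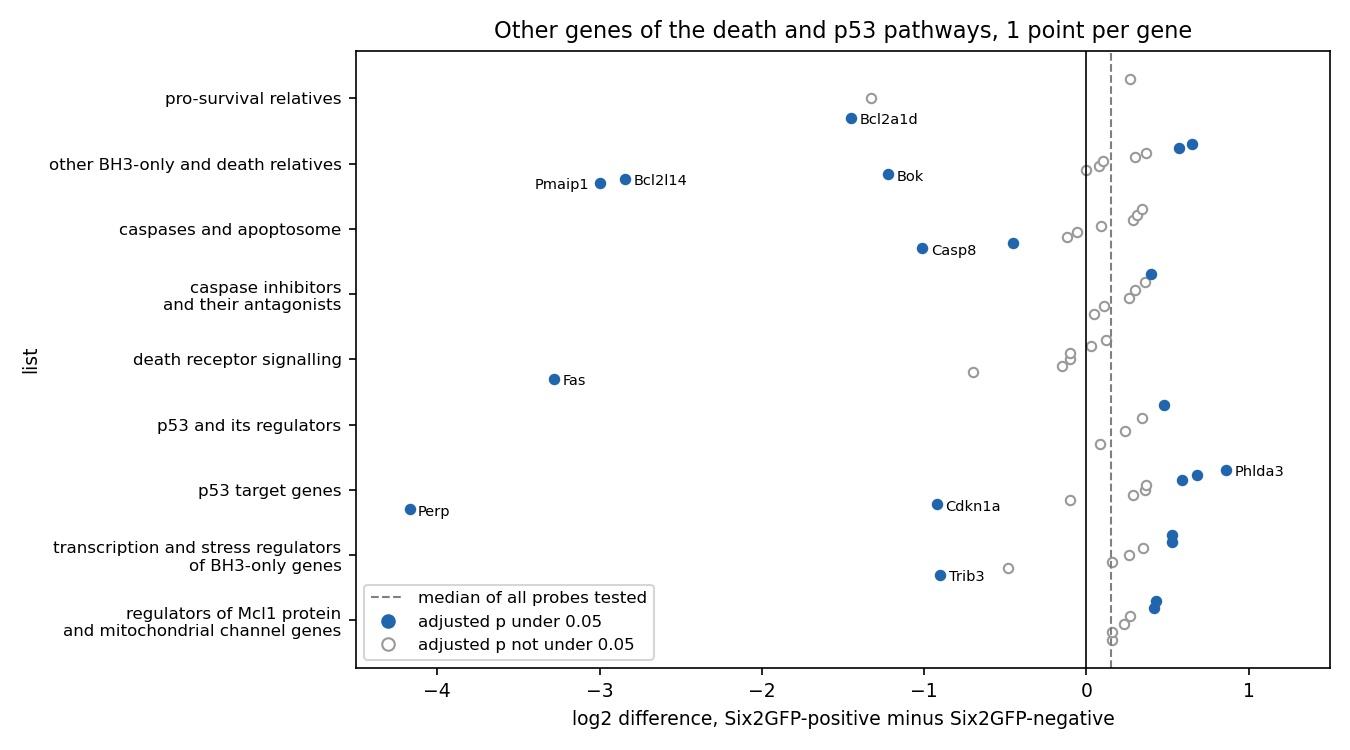
Log2 difference, Six2GFP-positive minus Six2GFP-negative, of the 60 other genes measured, 1 point per gene at its brightest probe, by list; filled points passed an adjusted p of 0.05 and the dashed line marks the median of all probes, 0.15. Most points lie within 1 of 0, and the far points to the left are Perp, Fas, Pmaip1 and Bcl2l14.

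The last lists hold regulators of the family. Foxo3, a forkhead factor that induces Bcl2l11 and Bbc3, was higher by 0.53 ± 0.13 (adjusted p = 0.0444), a call lost when dim probes were kept in the fit (adjusted p = 0.0835) and with any 1 array left out but positive array 1. The Foxo3 probe was dim, with processed signals of 49.76 and 60.29 in positive against 43.09 and 42.31 in negative cells. Its call was also lost with a trended robust variance (adjusted p = 0.0641). With normexp background correction and the 75th percentile the Foxo3 difference was 0.36, still past the threshold. Foxo1 was measured at 0.35 ± 0.12 (adjusted p = 0.0849). Atf4, of the integrated stress response, was higher by 0.53 ± 0.086 and Trib3, a target of Atf4, lower, at -0.90 ± 0.11 (adjusted p = 0.0168 and 0.00767). The Atf4 call was lost with any 1 array left out. Huwe1, a ubiquitin ligase for Mcl1, and the mitochondrial channel gene Vdac1 were higher by 0.43 ± 0.11 and 0.42 ± 0.092 (adjusted p = 0.0455 and 0.0325), and lost their calls with quantile normalization (0.26 and 0.16, adjusted p = 0.129 and 0.179) and with any 1 array left out.

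Bcl2l11 and Bbc3 are known forkhead targets. RefSeq promoters of the family (GRCm38.p6, 250 bases before to 50 after a start site) were searched for the forkhead core GTAAACA on both strands. That motif was chosen after the values and the promoter sequences were seen. The number of matches is therefore no test, also beside the share of all promoters, and a part of forkhead factors was not tested. All 10 genes had an entry, with 18 promoters in all, and 2 held a match: 1 of 2 for Bcl2l11 and 1 of 3 for Bbc3. Of all 32851 promoters of that length, 3.65% held one. The 30 bases around each match are shown with the match in capitals, which reads TGTTTAC where it lies on the other strand.
Bcl2l11 promoter (chr2:128125800-128125829, plus strand, match from -227): aagacactaggGTAAACAcgccggggtggg
Bbc3 promoter (chr7:16310083-16310112, plus strand, match from -167): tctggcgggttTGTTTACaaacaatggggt
A match describes these letters and does not show binding. The promoter windows of Bcl2 and Bmf, whose probes were higher too, did not hold the motif, which says only that these letters are not in those windows.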

How the data were processed

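Each of 4 sorted RNA samples has 1 one-colour (Cy3) Agilent array, design 026655. Feature Extraction 10.7.3.1 read the images, per the file headers; the deposited intensity values, the processed signal among them, were detrended within each array and not normalized between arrays. The deposited series table holds the same intensity (99.8% of probes within 0.01 log2). Here, outlier spots were left out, log2 processed signals were centred on each array's 75th percentile, spots of a probe averaged, and the 30012 probes that at least 1 group showed well above background on both its arrays fitted with limma 3.58.1 in R 4.3.3 (two-sided, Benjamini-Hochberg, threshold 0.05). The fit was tested on simulated data. That test first missed its recovery limit with noise drawn from single-probe SDs. It met the limit, which was kept, after the simulated noise was changed to limma's moderated spread from the same fit. The test thus shows recovery only under that noise and not under the noise with which it first missed. The precision is limited by 2 arrays per group. Levels were not compared between probes. All arrays shared 1 recorded scan time.

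Groups came from the sample titles. The members, the pathway and marker lists and the rule for named genes (all member probes, Six2, and of each pathway list the 3 largest differences past the threshold) were chosen with earlier results of these data known; other genes were named after their values were seen. Of 39395 probes 26034 were named through RefSeq accessions and 3190 through symbols, and 10171 kept the file's name; Bcl2a1a, Bcl2a1b, Hbb-b1 and Hspa1b were not matched. The alternatives were other scalings, normexp background correction (offset 50), the series table, other filters, a trended robust variance, a replicate block, genes in place of probes, and leaving out each array. Some genes of the lists are counted but not reported by name here.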

Additional observations from a re-analysis of the deposited data

How the results depend on the processing

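Of the 13 family probes, 3 to 4 passed with 1 array left out, 0 of them lower, although 2 to 3 lower ones had an unadjusted p under 0.05 in limma. The array median gave 0 lower family probes by either measure, and no filter on dim probes gave 1. For the wider list, the count was 41 (31 higher) with the array median, 32 (21 higher) with normexp and the percentile, 32 (20 higher) with a trended robust variance and 8 to 11 (0 to 3 higher) with 1 array left out; no filter gave 6 higher. With positive array 2 left out, 0 of the wider list were higher at the threshold and 10 at an unadjusted p under 0.05. Over all probes 18216 passed with the array median (13562 higher), 3391 were higher without a filter, and 5890 to 6542 passed with 1 array left out (1826 to 2682 higher). The sample numbers are shared between groups (deviations correlated at 0.221 across probes, and handling genes were higher on array 1 in both groups, by medians of 0.96 and 0.85), but the labels do not say that they mark shared litters or days, and there are only 2 pairs; a replicate block left 6 of 13 family probes past the threshold, 4 higher and 2 lower, with Bid (adjusted p = 0.0606) no longer called, and ended the Foxo3 call (0.0548). Of 74 results for single probes, 0 changed sign while called under any alternative, and the block kept 67 on their side of the threshold, took 5 below it and 2 past it. With 2 arrays per group, the calls of Bid, the brighter Bcl2l1 probe and Bak1 changed with the scale; the cause was not tested.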
